A study of Mus musculus with 8 samples.

Results

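The 9 genes Prg2, Epx, Mcpt8, Prss34, Cpa3, Hdc, Fcer1a, Ms4a2 and Il1rl1 are characteristic of eosinophils, basophils and mast cells. They were taken by symbol, with every non-control probe whose RefSeq transcript belongs to one of them, from 20145 gene symbols on the array. All 9 were represented, by 11 probes, of which Il1rl1 has 3. Haematopoietic progenitors had been sorted from the bone marrow of 12-week-old female mice on a C57Bl/6J background that lacked ACKR1, an atypical chemokine receptor that does not signal through G proteins, or from wild-type littermates. LSK cells (cKit-positive and Sca1-positive, without lineage markers) hold stem cells and multipotent progenitors, and GMP cells (positive for cKit, CD34 and the low-affinity Fc gamma receptors, without Sca1 or lineage markers) hold granulocyte-monocyte progenitors. There were 4 groups of 2 arrays each, wild-type LSK, deficient LSK, wild-type GMP and deficient GMP, and no group was treated further per the labels. The labels do not list the lineage antibodies, and nothing in them tells whether the 2 arrays of a group came from different mice. The p-values therefore measure only the spread between the samples, and that spread may be technical.

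Mast cells, basophils and eosinophils are granulocytes of allergic and antiparasitic responses. On mast cells and mouse basophils, antigen cross-links IgE on the high-affinity receptor, built of an alpha chain that binds IgE (Fcer1a), a beta chain that amplifies the signal (Ms4a2) and a gamma chain shared with other Fc receptors (Fcer1g), and the cell then releases histamine and granule proteases. Eosinophils store cytotoxic proteins in their granules, and factors of the GATA family act in the formation of all of these cells.

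The promoters of the genes are shown here because a GATA hexamer is the motif most tied to these lineages. Windows from 250 bases before to 50 bases after the start were read from RefSeq on GRCm38.p6, and 8 of the 9 genes had one (Prg2 had none, Il1rl1 had 2). AGATAA or AGATAG, and likewise TGATAA or TGATAG, were searched on both strands, and no matches overlapped in the windows printed. At least 1 match was present in 7 of 9 windows (77.8%), belonging to 6 of 8 genes, against 29.8% of all 32851 windows. A match is a description of these letters and not a bound site. The windows of the 3 receptor genes, which are set against the genotype below, and of Cpa3 are printed 5′ to 3′ on the strand of the gene with the matches in capitals.
Fcer1a (chr1:173227180-173227479, minus strand): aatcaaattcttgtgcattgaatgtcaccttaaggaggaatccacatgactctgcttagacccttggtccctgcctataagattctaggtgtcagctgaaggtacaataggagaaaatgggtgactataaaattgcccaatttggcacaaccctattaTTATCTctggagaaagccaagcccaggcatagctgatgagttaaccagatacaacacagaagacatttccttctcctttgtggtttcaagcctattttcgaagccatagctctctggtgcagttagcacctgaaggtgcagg
Ms4a2 (chr19:11623670-11623969, minus strand): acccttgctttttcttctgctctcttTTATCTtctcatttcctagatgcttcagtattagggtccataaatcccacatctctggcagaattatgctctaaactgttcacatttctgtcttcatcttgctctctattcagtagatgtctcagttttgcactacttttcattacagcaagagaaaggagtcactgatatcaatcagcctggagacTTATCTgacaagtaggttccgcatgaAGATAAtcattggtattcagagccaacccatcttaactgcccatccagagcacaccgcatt
Il1rl1, upstream window (chr1:40429320-40429619, plus strand): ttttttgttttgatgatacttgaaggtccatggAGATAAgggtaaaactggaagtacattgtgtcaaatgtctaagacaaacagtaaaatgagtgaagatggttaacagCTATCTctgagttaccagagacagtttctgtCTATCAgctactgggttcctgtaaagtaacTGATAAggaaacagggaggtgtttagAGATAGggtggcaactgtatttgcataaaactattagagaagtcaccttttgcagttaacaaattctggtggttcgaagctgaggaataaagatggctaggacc
Cpa3 (chr3:20242132-20242431, minus strand): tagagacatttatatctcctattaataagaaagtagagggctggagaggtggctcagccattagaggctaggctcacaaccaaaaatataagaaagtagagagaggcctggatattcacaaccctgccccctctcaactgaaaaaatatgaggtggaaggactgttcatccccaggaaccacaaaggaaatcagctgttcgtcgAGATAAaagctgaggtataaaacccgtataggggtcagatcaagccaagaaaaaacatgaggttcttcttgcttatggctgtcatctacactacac
The upstream Il1rl1 window held 5 matches, the Ms4a2 window 3, and those of Fcer1a and Cpa3 1 each, which begin at −92 and −46 from the start. Of all windows, 7.77% held 2 or more. Hdc, Prss34 and the other Il1rl1 window also held 1 match each, and the windows of Epx and Mcpt8 held 0.

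A level here is the log2 signal of a gene's probe minus that array's 75th percentile, so 0 stands for that percentile. It compares 1 gene between arrays, not genes with each other. In bulk samples like these, fewer cells of a type and less RNA per cell cannot be told apart. Signal over background limits the precision. On deficient LSK replicate 2, 34.3% of spots were well above background and the lowest level so classed was −1.44, whereas on the other arrays 62.5% to 73.1% of spots were and that lowest level lay between −6.69 and −4.81. Deficient GMP replicate 1 correlated with deficient LSK replicate 1 (r = 0.905 over all features) slightly more than with its own replicate (r = 0.898), and wild-type GMP replicates with each other at r = 0.976. All deficient arrays lay in slide column 1 and all wild-type arrays in column 2, and the effects of slide column and genotype cannot be told apart. The Ackr1 probe did not separate the genotypes, with differences of 0.08 in LSK and 0.36 in GMP (limma adjusted p = 0.954 and 1.00), and whether that probe overlaps the deletion is not stated in the labels. The sort labels were checked on wild-type arrays. Elane, the neutrophil elastase of granulocyte progenitors, and Hlf, a stem cell regulator, differed between GMP and LSK by 6.999 and −4.53 on the log2 scale, both called, while Ly6a, which encodes Sca1, differed by 0.16 and was not called. Of 10 granulocyte-monocyte progenitor markers 5 were called higher in wild-type GMP than in LSK (median difference 4.77), against 0.502% of features. Cd34, which is among them and among the stem markers below, had mean levels of 6.59 in wild-type GMP and 7.64 in wild-type LSK. Of 10 stem and multipotent progenitor markers 6 were called lower in wild-type GMP than in LSK (median difference −4.31). Of all features, 1.86% were called in either direction. In deficient mice 0 of these stem markers were called (median −1.26), but no feature on the array was called there either. An unadjusted p under 0.05 was found for 4 of them, against 16.7% of features. On deficient LSK replicate 2, 3 of the 10 were not well above background. For the interaction 0 were called and 5 had an unadjusted p under 0.05, against 2.47% of features. The part of this in the values below was not tested.

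**Figure D1:**
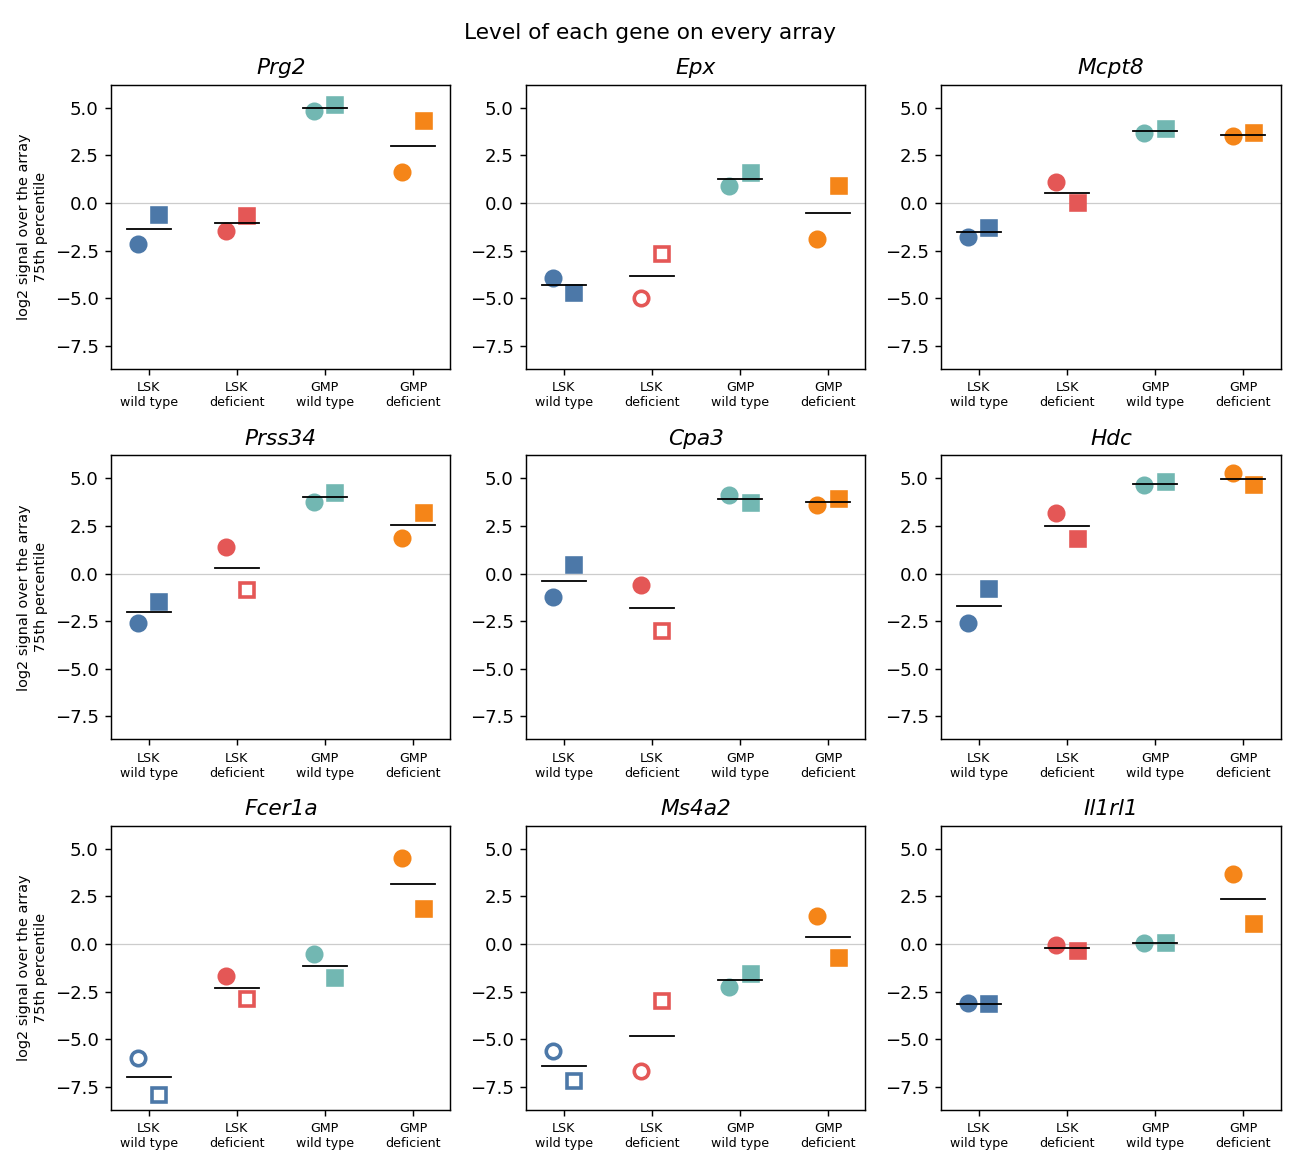
Level of each of the 9 genes on every array, as log2 signal minus the log2 75th percentile of the array. Circles are replicate 1, squares replicate 2, open symbols arrays on which the probe was not well above background, and bars the group mean. In each panel the GMP arrays of a genotype lie above its LSK arrays, and Il1rl1 is higher on deficient than on wild-type arrays in both populations, as is Fcer1a, for which 3 of the 4 LSK symbols are open.

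In wild-type mice the 9 genes were higher in GMP than in LSK cells, 7 of them past the test. These are bulk levels of the sorted populations and do not show in which of their cells the genes were on. Histidine decarboxylase (Hdc), Prg2, Prss34, Fcer1a, Epx, Mcpt8 and Cpa3 rose by between 4.27 and 6.44 on the log2 scale, and Ms4a2 and Il1rl1 did not pass.

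Prg2 encodes the major basic protein of eosinophil granules. Wild-type LSK arrays read −2.13 and −0.64 and deficient ones −1.46 and −0.68, while wild-type GMP arrays read 4.83 and 5.13 and deficient ones 1.65 and 4.29. Both LSK groups were low and overlapped, and both deficient GMP arrays lay below both wild-type GMP arrays, replicate 1 far below. Epx encodes eosinophil peroxidase. Its LSK levels were −3.93 and −4.73 on wild-type arrays and −4.98 and −2.70 on deficient arrays (neither well above background), and its GMP levels were 0.91 and 1.59 on wild-type and −1.91 and 0.88 on deficient arrays. Its arrays were placed like those of Prg2, with the 2 deficient GMP arrays below the wild-type pair.

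Mcpt8 encodes a serine protease of mouse basophils. In LSK it was at −1.79 and −1.29 on wild-type and 1.10 and −0.0116 on deficient arrays, and in GMP at 3.66 and 3.91 on wild-type and 3.52 and 3.67 on deficient arrays. The deficient LSK arrays lay above the wild-type ones, where the place of replicate 2 rests on the scaling, and the GMP groups overlapped. Prss34 encodes another mouse basophil protease, at −2.57 and −1.51 on wild-type and 1.41 and −0.86 on deficient LSK arrays (replicate 2 of the latter not well above background), and at 3.77 and 4.24 on wild-type and 1.88 and 3.17 on deficient GMP arrays. Deficient arrays were above wild type in LSK, where that place rests on replicate 1, and below it in GMP. Cpa3, the carboxypeptidase of mast cell granules, was at −1.22 and 0.47 on wild-type and −0.58 and −3.03 on deficient LSK arrays (replicate 2 of the latter not well above background), and at 4.10 and 3.70 on wild-type and 3.59 and 3.90 on deficient GMP arrays. Its genotypes overlapped in both populations. Hdc, the enzyme that makes histamine, read −2.61 and −0.82 on wild-type and 3.20 and 1.79 on deficient LSK arrays, against 4.67 and 4.78 on wild-type and 5.27 and 4.66 on deficient GMP arrays. Wild-type LSK stood apart as the low group and the GMP groups overlapped.

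Fcer1a read −6.00 and −7.92 on wild-type LSK arrays (neither well above background) and −1.69 and −2.90 on deficient ones (replicate 2 not well above background). On GMP arrays it read −0.52 and −1.79 in wild type and 4.49 and 1.84 in deficient mice. From low to high the groups ran from wild-type LSK through deficient LSK and wild-type GMP, which overlapped, to deficient GMP. In units of Feature Extraction's processed signal, wild-type LSK arrays gave 4.42 and 3.19, deficient LSK arrays 86.9 and 3.30, wild-type GMP arrays 247 and 173 and deficient GMP arrays 4439 and 1689. Deficient LSK replicate 2 therefore gave no measured level of Fcer1a, and the place of deficient LSK above wild-type LSK rests on replicate 1. Ms4a2 was not well above background on any LSK array, with values of −5.63 and −7.18 in wild type and −6.67 and −2.98 in deficient mice, and read −2.26 and −1.55 on wild-type and 1.48 and −0.71 on deficient GMP arrays. Deficient GMP arrays were above wild-type GMP arrays, and the LSK groups overlapped. Il1rl1 encodes ST2, the receptor for interleukin 33. Its LSK levels were −3.09 and −3.17 on wild-type and −0.0552 and −0.37 on deficient arrays, and its GMP levels 0.0335 and 0.0409 on wild-type and 3.67 and 1.04 on deficient arrays. No pair of groups overlapped, although deficient LSK and wild-type GMP were close, and the 2 deficient GMP replicates differed from each other by more than those groups did.

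GMP minus LSK in wild type was 6.44 ± 0.80 (SE, n = 2 arrays per group) for Hdc, 86.9-fold, with a limma adjusted p of 0.00546. Mcpt8 was 40.1-fold higher (5.32 ± 0.67, adjusted p = 0.00546 in limma). For Prg2 the fold was 82.5 (6.37 ± 0.93) and for Prss34 65.9 (6.04 ± 0.88), both at a limma adjusted p of 0.0100, and for Epx 47.8 (5.58 ± 1.04, adjusted p = 0.0272). Cpa3 was 19.3-fold higher (4.27 ± 0.91) at an adjusted p of 0.0491. Fcer1a, which neither wild-type LSK array measured well above background, was at least 27.4-fold higher (5.80 ± 1.03, adjusted p = 0.0214); such a bound sets the brighter group against the lowest level classed as well above background on each dim array, or the probe's own value where that is higher. Ms4a2 was at least 16.3-fold higher (4.50 ± 1.21) and Il1rl1 9.005-fold (3.17 ± 0.85), both with an adjusted p of 0.130, so neither passed. The Il1rl1 value is that of its brightest probe. Its dimmer probes, well above background on 3 and 2 of the 8 arrays, gave 1.46 and 0.76, and the latter overlapped between the populations. The 7 called genes compare with 0.502% of the 28088 features called higher in GMP, and the 9 genes without overlap compare with 28.3%. Fcer1a and Ms4a2 were kept for testing only because GMP groups had them well above background. Their direction between populations, in either genotype, is therefore partly set by that choice. The members were also chosen with earlier results of these data known, so the shares are a description and not a test. All 9 had an unadjusted p under 0.05, against 8.4% of features. The median over the 9 genes was 5.58, against 0.01 over all features. With 2 arrays a group the calls rested on each wild-type array: 0 of the 9 genes were called without wild-type LSK replicate 1, and 1 (Hdc) without wild-type LSK replicate 2, wild-type GMP replicate 1 or wild-type GMP replicate 2. Under quantile normalization or median scaling 2 genes were called (Hdc and Mcpt8).

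In deficient mice every one of the 9 genes was again higher on both GMP arrays than on both LSK arrays, by between 2.25 (Prss34) and 5.55 (Cpa3) on the log2 scale, with a median of 3.32 against −0.07 over all features. Arrays without overlap in that direction were found for 18.4% of features. None of the 9 was called by limma (adjusted p from 0.140 to 0.255), nor was any feature (0%), and at an unadjusted p under 0.05 all 9 passed, against 16.7% of features. Prg2, well above background on all 4 of these arrays, was 16.5-fold higher in deficient GMP than in deficient LSK. Fcer1a and Cpa3 differed by 5.46 and 5.55, with no fold given because deficient LSK replicate 2 was not well above background for either, and without that array by 4.86 and 4.33. Over all 9 genes, without deficient LSK replicate 2 the differences ran from 1.12 (Prss34) to 7.06 (Ms4a2), and without deficient LSK replicate 1 5 genes were called, when the weak array alone stood for that group. Values in the 2 genotypes stand side by side here, and the difference between them is tested below.

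**Figure D2:**
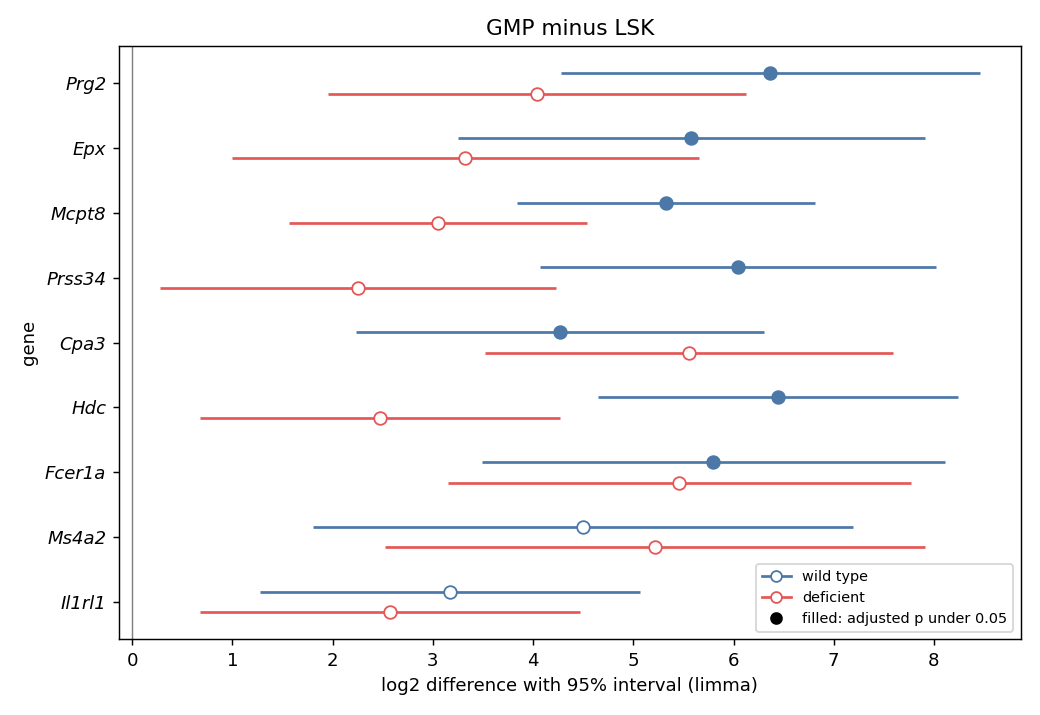
Difference between GMP and LSK (log2, GMP minus LSK) for each gene in wild-type and deficient mice, with the 95% interval of limma. Filled points passed an adjusted p of 0.05, which 7 genes did in wild type and 0 in deficient mice, and all 18 intervals lie above 0. Fcer1a and Ms4a2 were kept for testing through GMP groups alone, so their direction here is partly set by that choice.

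In LSK cells, 5 genes were higher on both deficient arrays than on both wild-type arrays (Fcer1a, Hdc, Il1rl1, Prss34 and Mcpt8), and none passed the test. For Fcer1a, the IgE-binding chain, the difference was 4.66 ± 1.03 (SE; adjusted p = 0.208 in limma), at least 12.4-fold, although this is no strict bound because deficient replicate 2 was not well above background. Hdc differed by 4.21 ± 0.80, 18.5-fold (adjusted p = 0.107), and Il1rl1 by 2.92 ± 0.85, 7.57-fold (adjusted p = 0.441). Of the basophil proteases, Prss34 differed by 2.31 (adjusted p = 0.550), with no fold given because deficient replicate 2 was not well above background. Mcpt8 was 4.24-fold higher on the scaled levels (adjusted p = 0.494). Its processed signal was 24.4 on deficient replicate 2, against 81.5 and 315 on the wild-type arrays. The place of that replicate above wild type therefore rests on the scaling, as it does for Il1rl1. The Mcpt8 level of wild-type replicate 1 (−1.79) lay below the lowest level classed as well above background on that deficient array (−1.44). Cpa3, with a difference of −1.43 (adjusted p = 0.577) that includes a reading not well above background on deficient replicate 2, overlapped between genotypes, as Prg2, Epx and Ms4a2 did. No member was called, and 0.239% of all features were. Arrays without overlap and higher in deficient mice were found for 16.4% of features, those lower for 21.1% (0 of the 9 genes), and 5 of the 9 genes had an unadjusted p under 0.05 against 8.83% of features. The median over the 9 genes was 2.08, against 0.11 over all features. Without deficient LSK replicate 2 the differences were 5.26 for Fcer1a, 4.91 for Hdc, 3.08 for Il1rl1, 3.45 for Prss34 and 2.64 for Mcpt8, each larger than with it, and −0.21 for Cpa3. Without deficient LSK replicate 1 they were smaller, at 4.06, 3.50, 2.76, 1.18 and 1.53 in the same order, and −2.66 for Cpa3, and 1 gene was called (Hdc). Prss34 and Fcer1a were well above background on 1 of the 2 deficient LSK arrays.

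In GMP cells no gene passed the test between genotypes. The 3 receptor genes were higher on both deficient arrays and Prg2, Epx and Prss34 were lower on both, while Hdc, Mcpt8 and Cpa3 overlapped. Fcer1a differed by 4.32 ± 1.03 (SE), 20.0-fold, with an adjusted p of 0.316 in limma, Il1rl1 by 2.32 ± 0.85, 4.996-fold (adjusted p = 0.903), and Ms4a2 by 2.29 ± 1.21, 4.91-fold (adjusted p = 0.955). Prg2 had a difference of −2.01 ± 0.93, 4.02-fold lower, Epx −1.77 ± 1.04, 3.40-fold lower, and Prss34 −1.47 ± 0.88, 2.78-fold lower, all with an adjusted p of 0.955. No member was called, against 0.146% of all features, and 2 had an unadjusted p under 0.05 against 4.82% of features. Arrays without overlap were found for 20.1% of features in the higher and 19.5% in the lower direction. Members therefore stood on either side, with a median of −0.15 against 0.16 over all features. The replicate that stands apart carried part of these values. Without deficient GMP replicate 1 the difference was 2.99 for Fcer1a, 1.01 for Il1rl1 and 1.199 for Ms4a2, and −0.68, −0.37 and −0.83 for Prg2, Epx and Prss34.

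**Figure D3:**
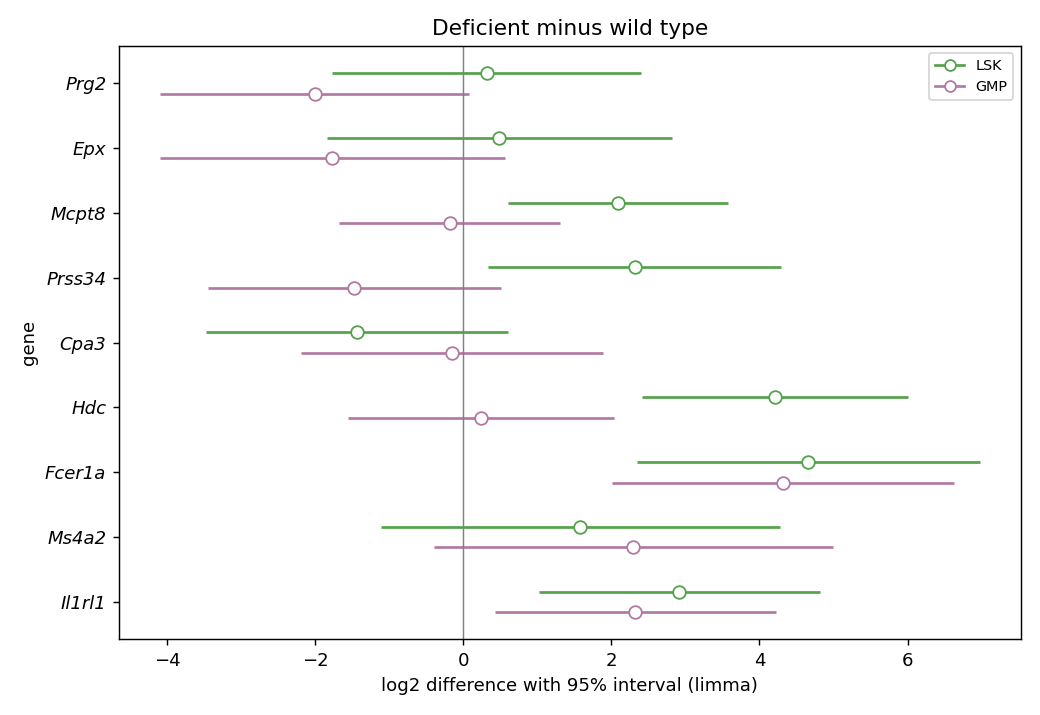
Difference between genotypes (log2, deficient minus wild type) for each gene in LSK and in GMP, with the 95% interval of limma. No point passed an adjusted p of 0.05. The intervals of Fcer1a and Il1rl1 lie above 0 in both populations, those of Hdc, Mcpt8 and Prss34 in LSK alone. Fcer1a and Prss34 were not well above background on deficient LSK replicate 2, nor was Fcer1a on either wild-type LSK array. For Il1rl1 and Mcpt8 the processed signal of deficient LSK replicate 2 was below both wild-type arrays. Its place above them rests on the scaling to the 75th percentile.

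Averaged over LSK and GMP, Fcer1a was the 1 gene of the 9 that rose past the test in deficient mice. The difference was 4.49 ± 0.73 on the log2 scale (SE, adjusted p = 0.0294 in limma). Every reading entered the fit as a measured level. Among LSK arrays Fcer1a was well above background on deficient replicate 1 alone, so the LSK part of this average and its SE rest largely on background readings. The fit took all 8 arrays as independent, with no pairing of LSK and GMP samples by mouse. Whether LSK and GMP samples shared mice is not known, so the SE may count more arrays than animals. Of all features, 0.602% were called in this comparison and 0.595% were called higher. Il1rl1 followed at 2.62 ± 0.60 (adjusted p = 0.161), Hdc at 2.22 ± 0.57 (adjusted p = 0.237) and Ms4a2 at 1.94 ± 0.85 (adjusted p = 0.405), none of them called. The median over the 9 genes was 0.95, against 0.17 over all features. Each slide row held 1 array of each genotype, and within rows 1 to 4 (LSK, GMP, LSK, GMP) the Fcer1a difference was 4.30, 5.02, 5.02 and 3.62. In row 3 neither array measured Fcer1a well above background, with processed signals of 3.19 (wild type) and 3.30 (deficient), so that value reflects the 75th percentiles of the same arrays (770 and 24.6) and shows no direction. In row 1 the deficient array alone was well above background, and in both GMP rows both arrays were. For Il1rl1, well above background on all 8 arrays, the difference was 3.04, 3.64, 2.80 and 1.00, higher in deficient mice in 4 of 4 rows. In row 3 its processed signal was 85.4 in wild type and 19.0 in deficient, so the sign there rests on the scaling to the 75th percentile. The wild-type level in that row (−3.17) lay below the lowest level classed as well above background on the deficient array (−1.44). The share of all features with 4 of 4 rows alike was not computed. The 3 Il1rl1 probes shared the direction, with averaged differences of 2.62, 3.01 and 4.01, although the latter 2 probes were well above background on 3 and 2 of the 8 arrays only.

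The averaged Fcer1a difference kept its direction in the 19 alternatives that tested it, between 2.88 and 5.15. Its call was kept in 8 of them, and limma's adjusted p lay between 0.00232 and 0.429 over the 19. The alternatives reuse the same arrays and are not independent. The lowest adjusted p came with a block on replicate number, although these numbers did not pair the samples throughout. A block with numbers crossed in deficient LSK, chosen after seeing the data, also kept the call. The mean over probes and the authors' table kept it too, but both use the same Fcer1a probe. The call was lost without wild-type LSK replicate 2 (adjusted p = 0.140), deficient LSK replicate 1 (0.0588), deficient LSK replicate 2 (0.124), wild-type GMP replicate 2 (0.0741) or deficient GMP replicate 1 (0.128), without deficient LSK replicate 2 and deficient GMP replicate 1 together (0.165), and under quantile normalization (0.429), median scaling (0.234), array weights (0.107), no filter (0.0913) or slide row as a random block (0.0838). On chromosome 1 of GRCm38.p6, 2 annotated genes (Olfr418 and Mptx2) lie between Fcer1a and Ackr1, the gene the deficient mice lack.

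Whether the genotype difference itself differed between populations was tested as an interaction, GMP minus LSK. Hdc had −3.97 ± 1.14, Prss34 −3.79 ± 1.25 and Mcpt8 −2.27 ± 0.94, each with an unadjusted p under 0.05 (0.00605, 0.0131 and 0.0370) and an adjusted p of 0.961 in limma, so none was called. No feature on the array was called in this comparison (0%), and 3 of the 9 genes against 2.47% of features had an unadjusted p under 0.05. For the receptor genes the interaction was −0.34 ± 1.46 (Fcer1a), −0.60 ± 1.202 (Il1rl1) and 0.71 ± 1.71 (Ms4a2), with 95% intervals that span several log2 units (−3.61 to 2.93 for Fcer1a).

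Other genes of these cells were described from 5 lists. Among 12 genes of IgE receptor signalling, all tested, Fcer1g, the shared gamma chain, rose from LSK to GMP in wild type (3.66 ± 0.70, limma adjusted p = 0.0312) and Lat, an adaptor of the same pathway and of T cells, fell by 3.39 on the log2 scale (adjusted p = 0.0282). Between genotypes none of the 12 was called in either population or on average, and Gab2 and Inpp5d, an adaptor and an inhibitory phosphatase, had averaged differences of 1.66 and −1.14 (adjusted p = 0.420 and 0.438). Fcer1g had an averaged genotype difference of −0.33 beside 4.49 for Fcer1a. Of 17 cytokine and surface receptors, 0 were called in any of these comparisons: the interleukin 3 receptor chains Il3ra and Csf2rb differed between wild-type GMP and LSK by 2.30 and 2.18 (adjusted p = 0.239 and 0.280), and Il2ra and the basophil receptor Cd200r3 between genotypes by 3.20 and 1.46 (adjusted p = 0.109 and 0.396). Il2ra was well above background on the 2 deficient GMP arrays alone, so its value sets them mostly against background readings. In each LSK group Cd200r3 and Gab2, and Ear1, Il6 and Gzmb below, were well above background on 1 array of 2. The medians of these 2 lists for the averaged genotype difference were −0.41 and 0.31, beside 0.17 over all features.

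Of 16 other granule proteins 12 were tested, and 3 rose from LSK to GMP in wild type: Ctsg, which encodes cathepsin G (5.77, adjusted p = 0.00836 in limma), Prg3, a homologue of Prg2 (4.72, adjusted p = 0.0276), and Gzmb, granzyme B (4.02, adjusted p = 0.0438). Between genotypes 0 were called, and the eosinophil-associated ribonucleases Ear1 and Ear2, near-identical copies whose probes may share signal, had averaged differences of 2.39 and 2.41 (adjusted p = 0.0620 and 0.161). Of 13 genes of mediator synthesis and cytokines 9 were tested. Alox5, the lipoxygenase that starts leukotriene synthesis, rose from LSK to GMP in wild type (4.76, adjusted p = 0.0249), and its averaged genotype difference of 2.53 was not called (adjusted p = 0.202). Il6 differed by 3.73 and 1.86 in the same comparisons (adjusted p = 0.218 and 0.403).

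All 16 transcription factors of the list were tested. Cebpe, needed for late granulocyte and eosinophil maturation, rose from LSK to GMP in wild type (6.08, adjusted p = 0.00353 in limma) and was the 1 gene of these 5 lists called between genotypes, in LSK (4.94, adjusted p = 0.0161). Its LSK means were −1.21 on wild-type and 3.73 on deficient arrays, and its GMP means 4.87 and 4.70. The LSK call was lost in 8 of 21 alternatives, which include leaving out wild-type LSK replicate 1 (adjusted p = 0.154), wild-type LSK replicate 2 (0.167) or deficient LSK replicate 2 (0.105), with differences between 3.65 and 5.52 over the 21. Gata1, the factor of erythroid, megakaryocytic, mast cell and eosinophil differentiation, had an averaged difference of 1.97 (adjusted p = 0.168), and Irf8, a factor of monocytes and basophil progenitors, differed by 3.98 between wild-type GMP and LSK (adjusted p = 0.0811).

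Markers of other cell types moved with genotype on the same arrays. The counts called below compare with 0.239% of all features called higher in deficient LSK and 0.146% in deficient GMP. All 10 maturing neutrophil markers were measured, 8 were called higher in deficient LSK and 6 in deficient GMP, and up to 4 of them were not well above background on a wild-type array. Their summed linear level (75th percentile = 1) was 3.36 to 10.6 on wild-type and 1352 to 3268 on deficient LSK arrays, and 8.78 to 17.2 on wild-type and 1253 to 3333 on deficient GMP arrays. Of 10 erythroid markers 5 and 6 were called higher, with sums of 16.05 to 55.3, 1541 to 8546, 6.70 to 13.6 and 1542 to 3009 in the same order of groups. The summed level of the 9 genes described here was 1.498 to 3.51, 6.93 to 16.3, 101 to 114 and 89.7 to 107.3 in that order, so it overlapped between genotypes in GMP. The part of neutrophil or erythroid RNA in the genotype differences was not tested. The neutrophil marker S100a9 and the globin gene Hba-a2 had mean levels of 10.44 and 11.47 in deficient LSK against 1.52 and 2.83 in wild-type LSK. Megakaryocyte and platelet markers (9 of 9 measured, 0 called) summed to 18.4 to 23.4, 8.29 to 17.4, 1.57 to 2.14 and 8.67 to 34.6. An unadjusted limma p under 0.05 between genotypes was found for 6 of them in GMP, against 4.82% of features. In LSK it was found for 1, against 8.83%. The megakaryocyte and platelet sum was higher on both deficient than on both wild-type GMP arrays, as the neutrophil and erythroid sums were. Of all features, 20.1% were higher in that way, Fcer1a, Ms4a2 and Il1rl1 among them. Of the other lists, 1 of 6 measured B cell markers was called higher in deficient LSK and 2 in deficient GMP, and 0 of the stem and multipotent progenitor, granulocyte-monocyte progenitor, monocyte and macrophage, or T and NK cell markers were called in either population.

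**Figure D4:**
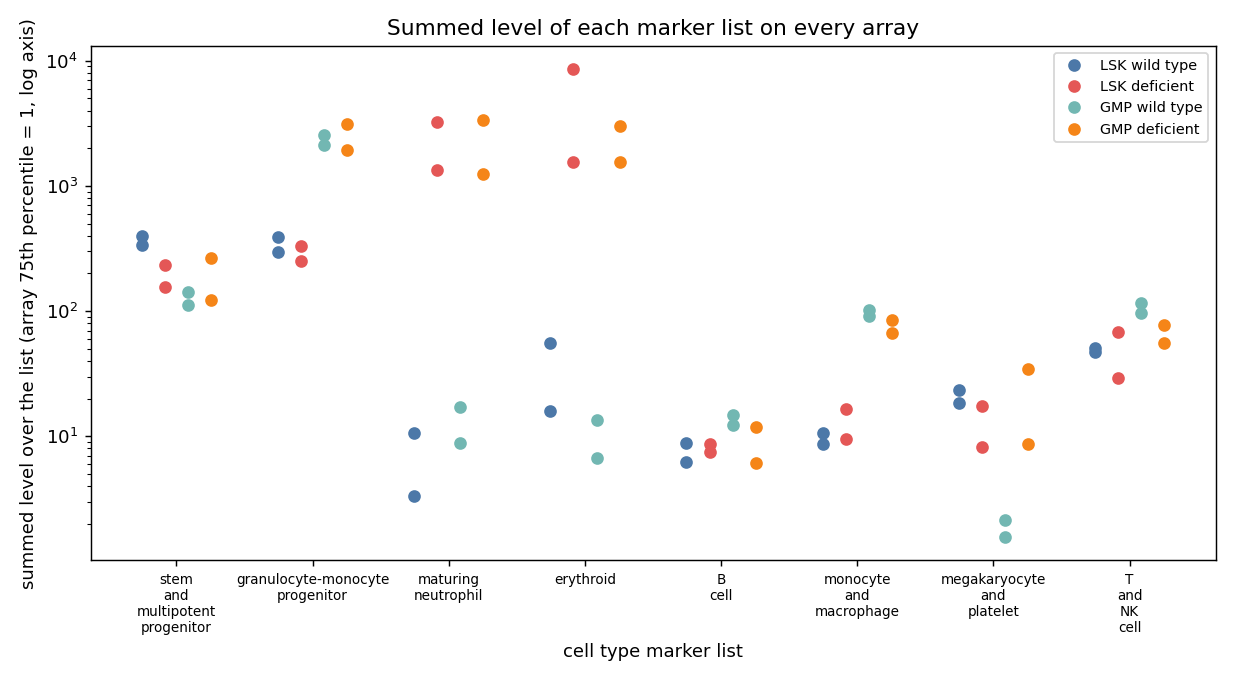
Summed linear level of 8 cell type marker lists on every array (75th percentile of the array = 1, log axis). Maturing neutrophil and erythroid markers lie at 1253 or higher on all 4 deficient arrays and at 55.3 or lower on all 4 wild-type arrays, and the other lists differ less between genotypes.

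Across the 8 arrays, the features with a symbol whose levels were most like each gene were ranked by Pearson's r, as a description in which the population difference and each array's scaling are shared by all points. Epx was most like Prg3 (r = 0.991) and Prg2 most like Ptges3l (r = 0.993). Fcer1a and Il1rl1 had the same nearest gene, Rnase2a, another eosinophil-associated ribonuclease, at r = 0.970 and 0.977. For Mcpt8 it was Ccne1 (r = 0.990), for Prss34 Slc2a6 (r = 0.987), for Hdc Mtus1 (r = 0.986), for Cpa3 Gng2 (r = 0.994) and for Ms4a2 Adam26b (r = 0.965).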

How the data were processed

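RNA of sorted LSK and GMP cells was hybridised to 1-colour Agilent arrays, 1 per sample. Per the file headers, Feature Extraction 10.7.3.1 gave each spot a background-corrected processed signal, an intensity on a linear scale, annotated on mm9. The authors' deposited table of log2 values matched that signal after the 75th percentile shift, with each probe centred on its median (r from 0.999671 to 0.999963), so its scale, centring and direction are known. Its columns had medians of 0.121 and −0.265 (LSK wild type), 0.0414 and 1.25 (LSK deficient), −0.134 and −0.136 (GMP wild type) and 0.315 and −0.111 (GMP deficient).

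Log2 processed signal was taken minus the array's 75th percentile over non-control spots. Control spots and flagged outliers did not enter, and 0 spots were saturated. A probe was kept where some group had it well above background on each array (39098 of 55681). Names came from RefSeq's GRCm38.p6 gene table by unversioned accession (26582 probes), and a gene was its kept probe with the highest mean. limma 3.58.1 in R 4.3.3 fitted 4 group means over 8 arrays (4 residual and 5.76 prior degrees of freedom). Calls are at a Benjamini-Hochberg adjusted p under 0.05 over 28088 features. The number of arrays limits the precision. The fit was tested on simulated data. Promoters were searched with Python 3.11.15.

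Alternatives were normexp (offset 50, on the median rather than the planned mean signal, since the files used hold no mean signal), quantile and median scaling, other filters and probe choices, the authors' table, array weights, the compared groups alone, arrays left out and blocks. Named genes were the 9 members and, in each related list, every called gene and the 2 with the smallest p in the averaged genotype comparison and between wild-type populations. The members and lists were chosen with earlier results of these data known.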

Additional observations from a re-analysis of the deposited data

Results flagged for a closer look

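The scaled levels of Prss34, the basophil protease, differed between genotypes with opposite signs in the 2 populations, and neither difference was called. Both deficient LSK arrays were above both wild-type LSK arrays, and both deficient GMP arrays were below both wild-type GMP arrays. The genotype difference in GMP minus that in LSK was −3.79 on the log2 scale, and limma's interaction test of it was not passed (adjusted p = 0.961). Deficient LSK replicate 2 was not well above background for this probe, so the place of deficient LSK above wild-type LSK rests on replicate 1. Without replicate 2 the value was −4.93. Without deficient LSK replicate 1 it was −2.65, and without deficient GMP replicate 1 −3.14.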

How the results depend on the processing

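The count of genes called in wild-type GMP against LSK (7) fell to 2 under quantile normalization and under median scaling, to 4 with no filter and to 3 of 4 tested with probes well above background on all 8 arrays, and ranged from 0 to 7 with 1 array left out. In deficient mice (0) it was 4 with normexp, 3 with the compared groups alone, 1 with the crossed block and from 0 to 5 with 1 array left out. In LSK between genotypes (0) it was 1 with the replicate block, 2 with the crossed block and from 0 to 1 with 1 array left out. In the average (1, Fcer1a) it was 0 under quantile normalization, median scaling, no filter, the filter over all 8 arrays (Fcer1a not tested), array weights, slide row as a random block and without deficient LSK replicate 2 and deficient GMP replicate 1 together. It was 2 with the mean over probes (adding Il1rl1) and from 0 to 2 with 1 array left out. The counts in GMP between genotypes and for the interaction were 0 in each alternative. Over all features the calls ranged, across alternatives, from 17 to 2123 between wild-type populations (522 here), 0 to 4258 between deficient ones (0), 0 to 2827 in LSK (67), 0 to 94 in GMP (41), 28 to 387 in the average (169) and 0 to 1 for the interaction (0). The causes were not tested beyond the fewer genes or arrays that these settings leave. Replicate numbers did not pair the samples throughout. Correlations of same-numbered deviations between genotypes were −0.344 in LSK and 0.262 in GMP. Between LSK and GMP they were −0.133 in wild type and −0.0524 in deficient mice. The replicate block is therefore an alternative only. With it 1 gene was called in LSK, 0 in GMP, 1 in the average, 6 between wild-type populations and 0 between deficient populations. With numbers crossed in deficient LSK, chosen after seeing the data, the counts were 2, 0, 1, 8 and 1.

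Directions turned for the following values, none of them called. With normexp the interaction was 1.60 for Fcer1a, −0.16 for Cpa3 and 0.11 for Il1rl1. Under quantile normalization the LSK difference of Epx was −0.35 and the Fcer1a interaction 0.81. Under median scaling LSK differences were −0.29 (Prg2) and −0.12 (Epx), the GMP difference of Hdc −0.0563 and the averaged one of Prss34 −0.0287. The mean over probes gave an Il1rl1 interaction of 0.31. Without both arrays that stand apart, LSK differences were −0.0758 (Prg2), −0.65 (Epx) and −0.26 (Ms4a2), GMP differences −0.067 (Hdc) and 0.00168 (Cpa3) and the Epx interaction 0.28. With 1 array left out, ranges that crossed 0 were −0.43 to 1.07 (Prg2), −0.65 to 1.63 (Epx) and −0.26 to 3.43 (Ms4a2) in LSK, −0.067 to 0.54 (Hdc) and −0.35 to 0.0494 (Cpa3) in GMP, −1.34 to 0.0582 (Epx) and −0.15 to 0.99 (Prss34) in the average, and −1.67 to 0.99 (Fcer1a), −1.13 to 2.56 (Ms4a2) and −1.91 to 0.72 (Il1rl1) for the interaction. The median of all features for the averaged genotype difference was 0.17 here, 0.30 with normexp, −0.09 under quantile normalization and −0.28 under median scaling. Signal over background limits the LSK values of Fcer1a, Ms4a2, Epx, Prss34 and Cpa3.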
